A study of Rattus norvegicus with 6 samples.

Results

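The genes described here are 9 precursors of neuropeptides that are made in the hypothalamus: Pmch, Hcrt, Avp, Oxt, Pomc, Agrp, Gal, Cartpt and Trh. They were taken by gene symbol out of 30076 symbols in 6 deposited tables, with the values of a symbol summed within a library. RNA came from 6 male F344 rats aged 18 months, and each rat gave 1 library. The 3 manipulated rats (replicates 4, 5 and 6) had cranial osteopathic manipulation (hands-on work on the skull by 1 practitioner) over 7 days, with isoflurane at 1.5 to 3%. The 3 untreated rats (replicates 1, 2 and 3) were anaesthetised too. The tissue was a coronal section of 1 mm, cut in a brain matrix and labelled as prefrontal cortex, and the study compared its gene expression between the 2 groups. Levels are given as FPKM, a fragment count that is corrected for the length of the transcript and the size of the library.

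A neuropeptide is cut from a larger precursor protein in the secretory pathway, stored in dense granules and released to act on G protein-coupled receptors. Several of these precursors are made at very high level by small groups of neurons in particular hypothalamic nuclei, so that the precursor RNA marks those cells. Pmch and Hcrt belong to the lateral hypothalamus, Avp and Oxt to the paraventricular and supraoptic nuclei, and Pomc and Agrp to the arcuate nucleus. Gal, Cartpt and Trh are made in several hypothalamic nuclei and also elsewhere in the brain, and the prefrontal cortex is not known as a site of Pmch, Hcrt, Avp or Oxt neurons.

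The label of the tissue was set against marker genes. Slc17a7, the vesicular glutamate transporter of cortical neurons, had 71.5 to 110 FPKM in untreated and 50.8 to 74.4 FPKM in manipulated libraries, so that cortical neurons were represented in every library. Each untreated library also held thalamic and hypothalamic transcripts at levels well above 1 FPKM, and manipulated libraries held fewer of them. Read totals were not given in the sources used here, and the tables hold no counts. Of 10657 tested genes, the median level was 5.50, 3.98 and 5.17 FPKM in untreated and 4.01, 4.07 and 2.75 FPKM in manipulated replicates 4, 5 and 6, and the median log2 fold change was -0.36. With median-ratio scaling between libraries that median was -0.0037, and each member's value with this scaling is given beside its value as deposited.

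All 8 members that could be tested had a lower mean log2 level in manipulated rats, as did 87.0% of tested genes. One of them, Pmch, passed the limma test at an adjusted p under 0.05, where 0.272% of tested genes passed as lower. The groups did not overlap in 4 members, Pmch, Hcrt, Avp and Pomc, and every manipulated library was below every untreated one in 23.7% of tested genes. With median-ratio scaling 2 members, Pmch and Hcrt, kept apart, against 9.85% of tested genes. A log2 fold change under -1 was found in 5 members, Pmch, Hcrt, Avp, Oxt and Pomc, and in 3.69% of tested genes. The median log2 fold change of the 8 members was -1.18 beside -0.36 for all tested genes, and -0.85 beside -0.0037 with median-ratio scaling. In bulk tissue, fewer cells of a type and less RNA in each cell cannot be told apart, and neither can manipulation and any difference in the level at which the sections were cut.

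**Figure D1:**
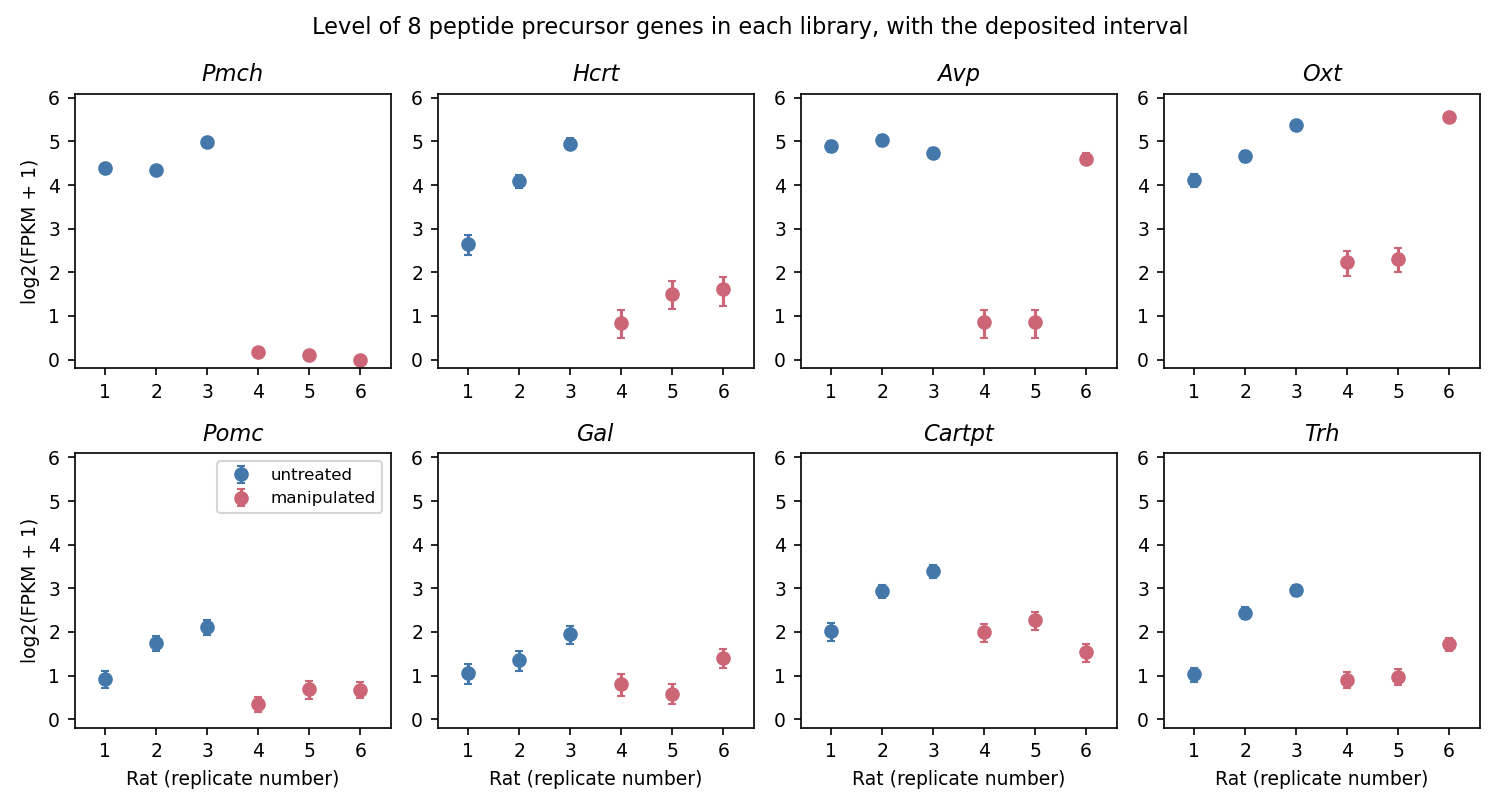
Level of each of the 8 tested precursor genes on the y axis, as log2(FPKM + 1), in each rat on the x axis, with untreated rats in blue, manipulated rats in red and the deposited FPKM interval as a bar. Pmch separates the groups completely, while in Avp and Oxt manipulated replicate 6 lies near or above the untreated rats.

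Pmch encodes the precursor of melanin-concentrating hormone, a peptide of feeding, energy balance and sleep. Its row (chromosome 7, 28654733 to 28657522, Rnor_6.0) had 20.1, 19.2 and 30.5 FPKM in the untreated group, against 0.125, 0.0815 and 0 FPKM in manipulated replicates 4, 5 and 6. Every untreated library was high and every manipulated one at or near 0. The lowest untreated level was 154 times the highest manipulated level, and the deposited intervals did not meet, with 18.1 FPKM the lowest bound in untreated and 0.194 FPKM the highest in manipulated rats. Pmch fell by 4.48 (SE 0.23) on the log2(FPKM + 1) scale, which understates the change of a gene near 0, with a limma adjusted p of 3.65e-05, and 4 of 10657 tested genes had a more negative log2 fold change. Over 16 alternatives the adjusted p was 3.20e-12 to 0.00746, and the log2 fold change was -4.27 with median-ratio scaling. The row of Parpbp, a gene of DNA repair, spans the Pmch locus and was listed at 0 in all 6 libraries.

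Hcrt encodes the precursor of the hypocretins, also named orexins, which sustain wakefulness and are made by neurons that lie among the Pmch neurons. Its row (chromosome 10, 88669214 to 88670430) had 5.29, 16.0 and 29.9 FPKM in the untreated group, against 0.799, 1.85 and 2.05 FPKM in manipulated replicates 4, 5 and 6. The groups did not overlap, but untreated rats differed among themselves by 5.65 times, where Pmch differed by 1.59 times in the same rats. The log2 fold change of Hcrt was -2.57 (SE 0.51), with a limma adjusted p of 0.120, so that Hcrt did not pass. With median-ratio scaling it was -2.22 with an adjusted p of 0.303. Without untreated replicate 1, the untreated rat with the lowest level, it was -3.20 with an adjusted p of 0.00245, and over 16 alternatives the adjusted p ran from there to 0.354. In untreated replicate 3 a row that joined Kcnh4 and Rab5c spanned the Hcrt locus with 29.9 FPKM, so that fragments there may have been shared between rows.

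The 2 lateral hypothalamic precursors were also set against each other. Per length, Hcrt stood at 0.263, 0.832 and 0.979 of the Pmch level in untreated rats. In manipulated replicates 4 and 5 the ratio was 6.38 and 22.7, with Hcrt measurable and Pmch close to 0, and in replicate 6 Pmch was listed at 0. This ratio was not tested because of the value of 0.

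Avp and Oxt encode vasopressin, the antidiuretic hormone, and oxytocin, the hormone of milk ejection and parturition, each together with its carrier neurophysin. Avp is also made in the suprachiasmatic nucleus, the circadian clock. The 2 genes are neighbours: in Rnor_6.0 the deposited rows were at 123106694 to 123107534 (Oxt) and, in untreated replicate 2, 123117492 to 123119460 (Avp) on chromosome 3, with at least 9947 bases between them, and in the RefSeq annotation they point towards each other. RefSeq promoter entries matched 8 of the 9 members, all but Pmch. The 250 bases before the start of Oxt and of Avp are printed because these neighbouring genes were both low in manipulated replicates 4 and 5 and high in replicate 6. They are from the build GRCr8, at chr3:138235504-138235753 on the plus strand for Oxt and chr3:138248523-138248772 on the minus strand for Avp, 5′ to 3′ along each gene. Capitals mark TGACC, the half-site of several nuclear receptors, TGACG, the half-site of cAMP response elements, and CACGTG, an E-box of circadian clock factors, each searched on both strands.
Oxt: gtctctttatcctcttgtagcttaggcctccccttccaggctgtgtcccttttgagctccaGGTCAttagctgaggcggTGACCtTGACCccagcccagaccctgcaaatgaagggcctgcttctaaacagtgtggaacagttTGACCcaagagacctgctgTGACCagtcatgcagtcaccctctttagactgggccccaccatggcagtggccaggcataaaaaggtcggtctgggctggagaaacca
Avp: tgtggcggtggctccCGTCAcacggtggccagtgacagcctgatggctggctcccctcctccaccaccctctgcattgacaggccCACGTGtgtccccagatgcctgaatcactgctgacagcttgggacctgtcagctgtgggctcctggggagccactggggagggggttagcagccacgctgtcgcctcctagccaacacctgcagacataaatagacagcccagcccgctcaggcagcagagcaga

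The Oxt window held 5 matches of TGACC, 4 on the strand of the gene, which begin 171, 165, 107 and 88 bases before the start. The Avp window held none, but 1 match of CACGTG that begins 165 bases before the start and 1 of TGACG on the opposite strand. Of 33469 promoter windows of this length 35.4% held TGACC, 18.2% held TGACG and 5.59% held CACGTG, and 0.0508% held TGACC at least as often as Oxt. No matches of different motifs overlapped in these 2 windows. Among the 8 member promoters TGACC was found in 5, TGACG in 4 and CACGTG in that of Avp alone. These matches describe the letters of the windows, and binding was not measured.

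Avp had 28.6, 31.6 and 25.8 FPKM in the untreated group, against 0.811, 0.812 and 23.4 FPKM in manipulated replicates 4, 5 and 6. Manipulated replicates 4 and 5 were low and close to each other, while replicate 6 was just below the lowest untreated rat, and its deposited interval of 21.3 to 25.5 FPKM met that of untreated replicate 3, 23.6 to 28.0 FPKM. As deposited, untreated rats differed by only 1.23 times, the narrowest spread of the 8 members. With median-ratio scaling, untreated rats spread more widely, from 20.6 to 33.1, and replicate 6 was instead the highest of all 6 libraries, at 36.2. The log2 fold change was -2.78 (SE 0.86) with a limma adjusted p of 0.309 as deposited, and -2.35 with an adjusted p of 0.505 when scaled. Without manipulated replicate 6 it was -4.03 (SE 0.20) with an adjusted p of 0.000649, so that 1 library decided whether Avp passed.

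Oxt had 16.2, 24.3 and 40.5 FPKM in the untreated group, against 3.70, 3.97 and 46.5 FPKM in manipulated replicates 4, 5 and 6. Replicates 4 and 5 were again low and alike, and replicate 6 had the highest Oxt level of all 6 libraries. The groups overlapped, the log2 fold change was -1.34 (SE 0.80) and the limma adjusted p was 0.348. Median-ratio scaling gave -0.90. Without manipulated replicate 6 the log2 fold change was -2.44 (SE 0.38) with an adjusted p of 0.102, and without replicate 4 or 5 it was -0.77 and -0.81. In manipulated replicate 4 a row of Ptpra with 18.4 FPKM spanned both Avp and Oxt.

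Both magnocellular precursors were thus close to or above the untreated levels in a manipulated rat in which Pmch was listed at 0. Avp stood at 1.76, 1.30 and 0.637 of the Oxt level in untreated rats and at 0.219, 0.204 and 0.503 in manipulated replicates 4, 5 and 6. The ratio was lower in every manipulated rat than in every untreated rat, also in replicate 6, with an exact two-sided permutation p of 0.1, a floor set by having 3 rats a group. It was chosen after its values were seen, and of 2 ratios tested this way the other, Hcrt over Oxt, gave an exact p of 0.2, with adjusted p of 0.2 for both. Hcrt stood at 0.326, 0.659 and 0.739 of the Oxt level in untreated rats and at 0.216, 0.466 and 0.0440 in manipulated ones, with the lowest value in replicate 6.

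**Figure D2:**
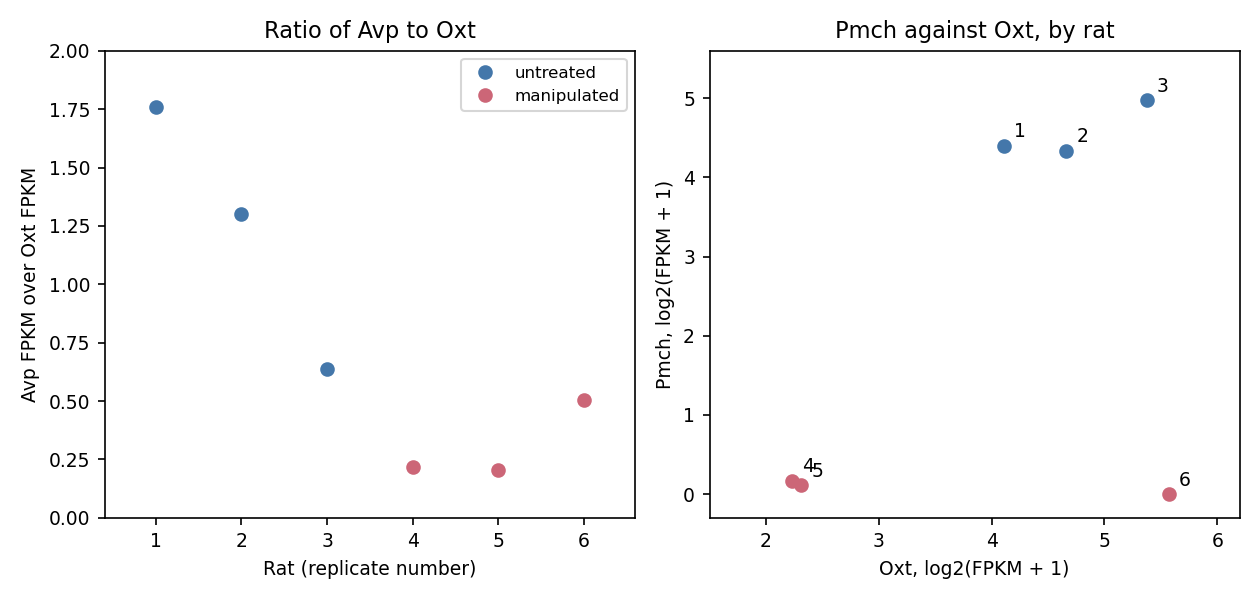
Left, the FPKM of Avp over that of Oxt (y axis, from 0) in each rat (x axis), with untreated rats in blue and manipulated rats in red. Right, Pmch against Oxt, both as log2(FPKM + 1), with the replicate number beside each point; replicate 6 combines the highest Oxt level with a Pmch level of 0.

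Pomc, Agrp and Cartpt belong to the circuit that controls food intake from the arcuate nucleus. Pomc encodes the precursor of alpha-melanocyte-stimulating hormone, which curbs feeding, and of corticotropin and beta-endorphin. It had 0.882, 2.34 and 3.35 FPKM in the untreated group, against 0.272, 0.603 and 0.598 FPKM in manipulated replicates 4, 5 and 6. Untreated replicate 1 was low among the untreated and its interval, from 0.629 FPKM upward, met that of manipulated replicate 5, which reached 0.820 FPKM. The log2 fold change of Pomc was -1.02 (SE 0.34) with a limma adjusted p of 0.309. Its groups overlapped after median-ratio scaling, where the log2 fold change was -0.80.

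Pomc is also made in the pituitary, whose other hormone genes were therefore examined. Prl, prolactin, had 0.0979, 0.983 and 12.3 FPKM in the untreated group, against 0.0224, 0 and 0.424 FPKM in manipulated ones, so that the untreated rat with the most Pomc also had the most Prl. Gh1, growth hormone, had 0.307, 0.437 and 0.338 FPKM in the untreated group, against 0, 0 and 1.62 FPKM in manipulated replicates 4, 5 and 6. Tshb had 0.695, 0.523 and 0.239 FPKM in untreated replicates 1, 2 and 3, and 0 to 0.149 FPKM in manipulated rats. Cga had 0.0666, 0.748 and 0.220 FPKM in untreated and 0 to 0.120 FPKM in manipulated rats. Among untreated rats, none of these 3 genes was highest in replicate 3, where Prl was. The summed level of the 9 pituitary genes with a value ran from 1.22 to 13.1 FPKM in untreated and from 0.158 to 2.48 FPKM in manipulated rats. Prl made up most of the 13.1 FPKM. Of the 9 genes Pou1f1, a pituitary transcription factor, was at 0.0391 FPKM or less in every library. The part of pituitary RNA in the Pomc values was not tested.

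Agrp encodes agouti-related protein, which blocks melanocortin receptors and drives feeding. It had a row of its own in 3 libraries only, with 0.460 FPKM in untreated replicate 3, 0.429 FPKM in manipulated replicate 4 and 0 FPKM in manipulated replicate 5. In the other 3 libraries its fragments were joined in a row with its neighbour Atp6v0d1, a subunit of the vacuolar proton pump, at 47.6, 39.4 and 24.7 FPKM. Agrp was therefore not tested, and no difference between groups can be read from it.

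Cartpt encodes the CART peptides, which accompany Pomc in the arcuate nucleus and Pmch in the lateral hypothalamus and are also made in the striatum and cortex. It had 3.04, 6.64 and 9.45 FPKM in the untreated group, against 2.99, 3.80 and 1.89 FPKM in manipulated replicates 4, 5 and 6. Untreated replicate 1 lay among the manipulated rats, so that the groups overlapped. The log2 fold change was -0.85 (SE 0.36) with a limma adjusted p of 0.326, -0.51 with median-ratio scaling and -0.55 without untreated replicate 3. Cartpt was lowest in manipulated replicate 6, the rat with the most Oxt.

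Gal encodes galanin, a peptide of many hypothalamic nuclei and of the noradrenergic locus coeruleus. It had 1.07, 1.55 and 2.85 FPKM in the untreated group, against 0.748, 0.499 and 1.63 FPKM in manipulated ones, with replicate 6 above 2 of the 3 untreated rats. Its log2 fold change of -0.52 (SE 0.33) was the smallest of the 8 members, 27.0% of tested genes had a more negative one, and the limma adjusted p was 0.364. It was -0.24 with median-ratio scaling and -0.27 without untreated replicate 3. Dbh and Slc6a2, which define noradrenergic neurons, were at 0.0454 FPKM or less in every library, so that locus coeruleus neurons were near the limit of measurement. Th and Ddc, which make catecholamines and are not limited to those neurons, had 0.358 to 1.29 and 0.330 to 0.936 FPKM in the untreated group, against 0.295 to 0.332 and 0.152 to 0.638 FPKM in manipulated ones. Rows of Cpt1a or unnamed loci overlapped that of Gal in 5 libraries.

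Trh encodes the precursor of thyrotropin-releasing hormone, which in the paraventricular nucleus heads the thyroid axis. It had 1.03, 4.42 and 6.74 FPKM in the untreated group, against 0.865, 0.962 and 2.29 FPKM in manipulated replicates 4, 5 and 6. Untreated replicate 1 and manipulated replicates 4 and 5 were alike, and the range in untreated rats, 6.52 times, was the widest of the 8 members. The log2 fold change was -0.94 (SE 0.46) with a limma adjusted p of 0.330. Median-ratio scaling gave -0.63. Without untreated replicate 1 it was -1.50 with an adjusted p of 0.128, and without untreated replicate 3, the highest, it was -0.53 with an adjusted p of 0.635. As deposited, Trh was highest among manipulated rats in replicate 6, like Hcrt, Avp, Oxt and Gal and unlike Pmch, Pomc and Cartpt. The deposited intervals of replicates 5 and 6 overlapped for Hcrt and for Pomc. With median-ratio scaling Pomc too was highest in replicate 6, at 0.924 beside 0.287 and 0.607 in replicates 4 and 5.

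**Figure D3:**
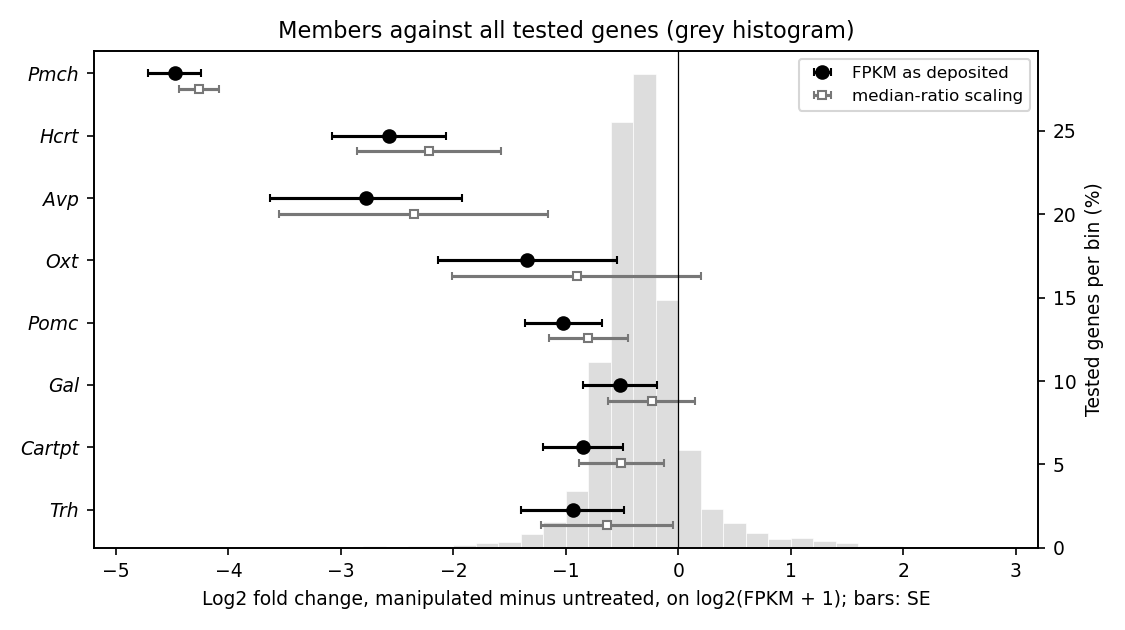
Log2 fold change of each member (x axis, manipulated minus untreated on log2(FPKM + 1)) with its SE as a bar, as deposited (black circles) and with median-ratio scaling (open squares), over a grey histogram of all 10657 tested genes as deposited (right axis, percent per bin of 0.2), of which 14 lie outside the axis. Pmch at -4.48 lies far outside the bulk of genes, while Gal at -0.52 lies within it.

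Ordered by their mean in untreated rats, the levels were 28.7 ± 2.92 FPKM for Avp, 27.0 ± 12.3 for Oxt, 23.3 ± 6.29 for Pmch, 17.1 ± 12.3 for Hcrt, 6.38 ± 3.21 for Cartpt, 4.06 ± 2.87 for Trh, 2.19 ± 1.24 for Pomc and 1.82 ± 0.923 for Gal (SD, n = 3). Neighbours in that order differed by less than the larger of their 2 SDs, though Hcrt and Cartpt, and Trh and Pomc, differed by more than the smaller. In manipulated rats the order was Oxt at 18.1 ± 24.6 FPKM, Avp at 8.35 ± 13.0, Cartpt at 2.89 ± 0.956, Hcrt at 1.57 ± 0.672, Trh at 1.37 ± 0.798, Gal at 0.961 ± 0.597, Pomc at 0.491 ± 0.190 and Pmch at 0.0689 ± 0.0636 FPKM. Pmch thus went from the third place to the last, and the SD of Avp and Oxt exceeded their mean because of replicate 6. Among untreated rats, replicate 1 had the lowest level of Hcrt, Oxt, Pomc, Gal, Cartpt and Trh, and replicate 3 the highest. As deposited, Pmch was lowest in replicate 2 and Avp in replicate 3. With median-ratio scaling Pmch too was lowest in replicate 1, at 15.2, and highest in replicate 3, at 24.4.

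**Figure D4:**
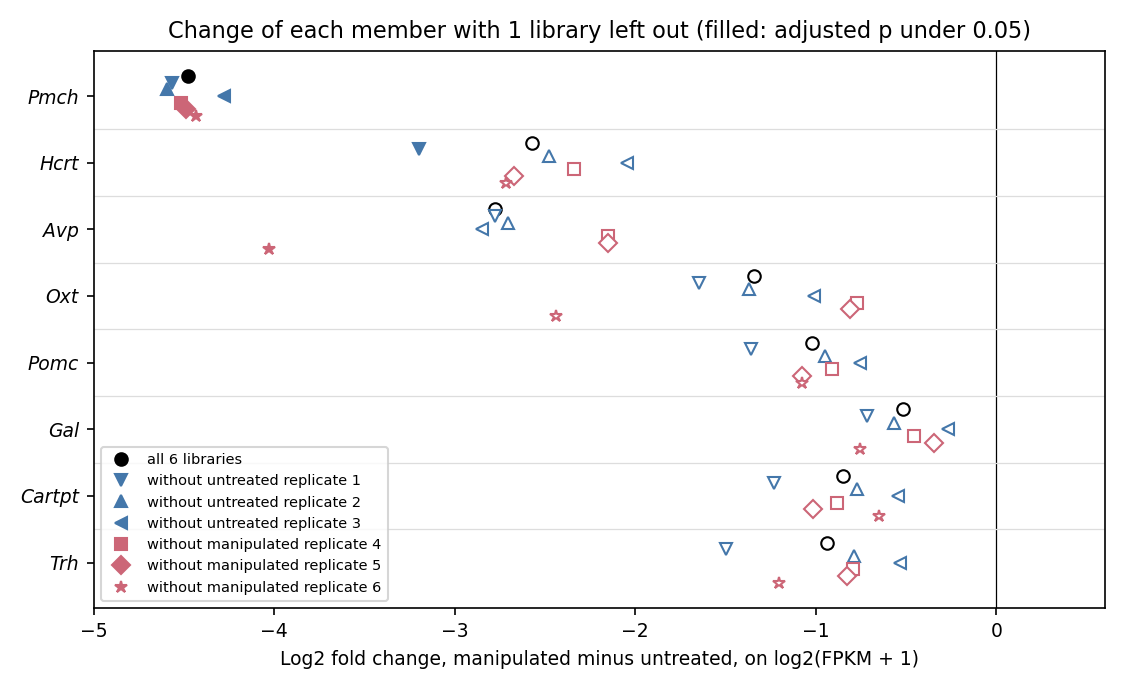
Log2 fold change of each member (x axis, manipulated minus untreated on log2(FPKM + 1)) with all 6 libraries (black) and with each untreated (blue) or manipulated (red) library left out, where filled symbols have a limma adjusted p under 0.05. Without manipulated replicate 6 Avp moves from -2.78 to -4.03 and Oxt from -1.34 to -2.44, while Pmch stays between -4.60 and -4.28.

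Each member was also compared with tested genes by the shape of its profile over the 6 libraries. The measure was the root mean square distance between log2(FPKM + 1) values centred on their mean. Other members, genes with clone or locus names and some small RNAs were left out of this ranking. Nearest to Pmch were Mir3552, at a distance of 0.75, and Prkcd, a protein kinase C of thalamic relay neurons, at 0.85. Nearest to Hcrt were Zfyve21 at 0.55 and Mir3552 at 0.56, both of which were listed at 0 in the manipulated rats. Avp was nearest to Ankrd13b at 0.66 and Rasd1, a small G protein, at 0.84, and Oxt to Ankrd13b at 0.72 and Coro6, a coronin, at 0.72. Ankrd13b and Coro6 were listed at 0 in manipulated replicates 4 and 5 and at 4.28 and 1.73 FPKM in replicate 6, the pattern of Avp and Oxt. The 4 remaining members ranged less over the 6 libraries, by 1.36 to 2.05 log2 units where the others ranged by 3.34 to 4.98, and the distance is not scaled to that range. Their nearest genes were Btbd11 (0.17) and Leprotl1 (0.19) for Pomc, Ccdc57 (0.096) and Qtrt2 (0.11) for Gal, Dgat1 (0.15) and Map2k6 (0.19) for Cartpt, and Avil (0.30) and Leprotl1 (0.32) for Trh. Among the members themselves Pomc and Cartpt were the closest pair, at 0.27, and Avp and Oxt were 0.85 apart.

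Most receptors of these peptides were measured at under 1 FPKM. Of 13 receptor genes 11 had a value of their own in every library, and only Mchr1, the receptor of melanin-concentrating hormone, reached a mean of 1 FPKM. Mchr1 had 1.89, 0.819 and 2.19 FPKM in the untreated group, against 1.81, 1.64 and 2.09 FPKM in manipulated rats, with overlapping groups, a log2 difference of 0.15 (SE 0.27) and an adjusted p of 0.700 by limma. Mchr1 was thus measurable in manipulated rats in which Pmch was at or near 0. The other 10 receptor genes with a value lay below the filter on low values and were not tested. In 3 of the 11 every manipulated library was below every untreated one. This held for 14.8% of all genes with a value and 15.8% of those above 0 and below the filter. In 1 of the 11, Avpr1b, every manipulated library was above, against 0.987%, but with 0, 0 and 0.00347 FPKM in untreated and 0.00361 to 0.0145 FPKM in manipulated rats these values lie next to 0.

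Genes of the proteins that process and pack these precursors ranged from abundant to low. Of 12 such genes 8 had a value and 7 were tested, with 7 lower and none past the limma adjusted p, a median log2 fold change of -0.49 as deposited and -0.10 with median-ratio scaling, close to all tested genes. Cpe, carboxypeptidase E, which trims the cut peptides, had 226, 156 and 183 FPKM in untreated and 152, 168 and 91.4 FPKM in manipulated rats. Pcsk2, the convertase that cuts at paired basic residues, had 22.1, 16.4 and 18.9 FPKM and 14.5, 14.9 and 8.92 FPKM, and Scg5, its chaperone, 73.7, 55.9 and 91.6 FPKM and 78.1, 71.9 and 40.9 FPKM. Pam, which amidates peptide ends, had 25.9, 16.7 and 25.0 FPKM and 17.0, 17.7 and 11.05 FPKM, and Chga, the granule protein chromogranin A, 21.4 to 22.4 FPKM and 15.1 to 27.4 FPKM. Pcsk5 and Prcp, a further convertase and a peptidase that inactivates alpha-melanocyte-stimulating hormone, had 1.44 to 2.13 and 1.99 to 2.82 FPKM in the untreated group, against 0.914 to 1.49 and 0.893 to 1.43 FPKM in manipulated rats. Pcsk1, the other main convertase of these precursors, was below the filter and was looked at after its values were seen. It had 0.841, 0.803 and 0.693 FPKM in the untreated group, against 0.552, 0.529 and 0.373 FPKM in manipulated ones, with no overlap between the groups. Among genes above 0 and below the filter, 15.8% were lower without overlap in the same way. These values are as deposited, with no scaling between libraries, so that no fall of Pcsk1 itself is read from them.

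Other neuropeptide precursors did not move in 1 direction. Of 28 such genes 12 were tested, 6 of them lower and 6 higher, where 87.0% of all tested genes were lower. Their median log2 fold change was -0.14 beside -0.36 for all tested genes, and 0.13 beside -0.0037 with median-ratio scaling. None passed the limma adjusted p. Cck, cholecystokinin, had 158, 133 and 196 FPKM in the untreated group, against 40.0, 48.0 and 55.2 FPKM in manipulated rats, with groups that did not overlap, a log2 fold change of -1.74 (SE 0.30) and an adjusted p of 0.0644. Sst, somatostatin, had 34.7, 34.6 and 49.1 FPKM and 47.1, 64.4 and 42.1 FPKM, and Npy, neuropeptide Y, which is made by arcuate Agrp neurons and also by cortical interneurons, 5.84, 7.55 and 9.93 FPKM and 10.01, 15.3 and 9.39 FPKM. Both of these overlapped between groups, with log2 fold changes of 0.36 and 0.51. All 3 precursors, which cortical neurons make, stayed well above 1 FPKM in every library.

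Transcription factors that mark hypothalamic nuclei were at low levels, and most lay below the filter, so that they are given as values. They were chosen after their values were seen, and factors whose groups overlapped follow them. Lhx9, a factor of Hcrt neurons that is also expressed in the thalamus, had 1.61, 1.84 and 1.65 FPKM in the untreated group, against 0.0973, 0.407 and 0.261 FPKM in manipulated rats. Otp, which specifies the paraventricular and supraoptic nuclei, had 0.630, 1.22 and 1.16 FPKM in the untreated group, against 0, 0.0688 and 0.361 FPKM in manipulated replicates 4, 5 and 6. Sim1, its partner in the same nuclei, had 0.0791, 0.104 and 0.0778 FPKM and 0.00238, 0.00238 and 0.0282 FPKM. For both factors the groups did not overlap, and manipulated replicate 6, the rat with Avp and Oxt at untreated levels, had the highest value of its group. Of genes above 0 and below the filter, 15.8% were lower without overlap. As deposited, replicate 6 was not the highest of its group for other genes of the paraventricular and supraoptic list. Crh, a further precursor, had 0.641 to 0.691 FPKM in untreated and 0.733, 0.645 and 0.579 FPKM in manipulated rats, with overlap. Caprin2 had 1.94 to 2.11 FPKM and 0.790, 1.21 and 0.871 FPKM. Arnt2 and Nos1, like Crh, were lowest of the manipulated group in replicate 6 as deposited. The median-ratio factor, by which a library is divided, was 0.947, 0.995 and 0.647 in manipulated replicates 4, 5 and 6. With this scaling replicate 6 was the highest of its group for Crh, Caprin2 and Arnt2, and not the lowest for Nos1. The place of replicate 6 in these genes thus depends on the scaling. Fezf1, of the ventromedial nucleus, had 0.120, 0.481 and 0.851 FPKM and 0.0242, 0.0403 and 0.0318 FPKM, and Nr5a1, which defines that nucleus, 0.0393, 0.0867 and 0.216 FPKM and 0.00898, 0 and 0.00708 FPKM. As deposited, and unlike for Otp and Sim1, replicate 6 was not the highest of its group for these 2 genes. With median-ratio scaling it was the highest for both, and the manipulated values of Nr5a1 lie next to 0. Other factors of the same lists overlapped between groups. Nkx2-1, which patterns the ventral hypothalamus, had 0.211, 0.272 and 0.622 FPKM in the untreated group, against 0.562, 0.541 and 0.348 FPKM in manipulated ones. Isl1, a factor of arcuate and also of striatal neurons, had 0.234 to 0.744 and 0.451 to 1.00 FPKM, and Tbx3, of the arcuate nucleus, 0.187 to 0.291 and 0.179 to 0.283 FPKM. Hmx3 (0.0134 to 0.147 and 0.0460 to 0.121 FPKM) and Bsx (0.0702 to 0.205 and 0.0210 to 0.213 FPKM) overlapped too. The low values were thus not shared by all hypothalamic factors.

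The lists of nuclei were read as counts, and every gene that had a value in each library was included. Every manipulated library was below every untreated one in 4 of 5 genes of the ventromedial nucleus, 3 of 6 of the suprachiasmatic nucleus, 3 of 7 of the paraventricular and supraoptic nuclei, 2 of 7 of the lateral hypothalamus, 2 of 10 of the arcuate nucleus, 2 of 6 of the tuberomammillary and mammillary nuclei and 1 of 6 of tanycytes, against 14.8% of all genes with a value. Among general hypothalamic markers it was 5 of 13 (Sim1, Otp, Ghsr, Fezf1 and Lhx9), and each of these is already counted in a list of nuclei above. The share of 14.8% includes genes at 0 in every library, which cannot separate. It was 23.7% of tested genes and 15.8% of genes above 0 and below the filter. The arcuate and tanycyte counts were close to these shares. All these counts are as deposited, and with median-ratio scaling the share of tested genes was 9.85%. The opposite, every manipulated library above every untreated one, was found in 1 of these lists, for 1 of 7 paraventricular and supraoptic genes (Pou3f2), against 0.987% of all genes with a value. Lhx5 and Foxb1 of the tuberomammillary and mammillary list had 0.194 to 0.253 and 0.244 to 0.397 FPKM in the untreated group, against 0.148 to 0.232 and 0.0121 to 0.115 FPKM in manipulated rats. Prlr, the prolactin receptor of the arcuate list, had 0.640 to 0.944 and 0.421 to 1.25 FPKM. Only Rgs16, a regulator of G protein signalling from the suprachiasmatic list that is also a thalamic gene, passed the limma test. Rgs16 fell by 2.17 on the log2 scale, from 7.85, 7.61 and 8.07 FPKM to 0.991, 0.922 and 0.999 FPKM, with an adjusted p of 0.00114. Vip, the vasoactive intestinal peptide of suprachiasmatic neurons and cortical interneurons, had 2.67, 2.94 and 5.91 FPKM and 1.43, 1.91 and 1.46 FPKM with an adjusted p of 0.309, and Syt10 had 1.14 to 2.05 and 0 to 1.50 FPKM.

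Many list genes serve other regions as well, and those that reached the filter differed in direction and size. Peg3, an imprinted gene of the hypothalamus, had 25.7 to 35.5 FPKM in untreated and 18.8 to 35.6 FPKM in manipulated rats, and Nkx2-2, which is also expressed in oligodendrocyte precursors, 1.46 to 3.53 and 0.688 to 1.51 FPKM. Arnt2, Pou3f2 and Nos1 of the paraventricular list had log2 fold changes of 0.13, 0.52 and -0.03. Pou3f2, a neuronal transcription factor, was higher in every manipulated rat (3.35 to 4.24 FPKM) than in every untreated rat (1.27 to 3.17 FPKM). Tac3, the neurokinin B precursor of the arcuate list, had 5.92, 7.85 and 10.7 FPKM and 6.31, 7.14 and 3.18 FPKM, and Pdyn, the dynorphin precursor that Hcrt neurons share with the striatum, 4.26, 3.25 and 4.71 FPKM and 6.29, 6.84 and 2.97 FPKM. Nts, neurotensin, had 2.76, 2.13 and 2.01 FPKM and 1.88, 1.40 and 0.683 FPKM, without overlap. As deposited, 23.7% of tested genes were lower without overlap. The log2 fold change of Nts was -0.54, close to that of Gal, and -0.27 with median-ratio scaling. Adcyap1, the PACAP precursor of the ventromedial list, had 2.27, 2.30 and 3.02 FPKM and 1.53, 1.72 and 1.31 FPKM, again without overlap. Its log2 fold change was -0.18 with median-ratio scaling. None of these passed, with limma adjusted p of 0.326 or more. Crym, Lhx2 and Col25a1 of the tanycyte list, with 11.9 to 25.0, 5.29 to 13.3 and 4.65 to 7.07 FPKM in the untreated group, against 10.7 to 18.5, 3.94 to 7.64 and 2.52 to 4.43 FPKM in manipulated rats, did not pass either. Col25a1 did not overlap as deposited, with a log2 fold change of -0.60, and of -0.24 with median-ratio scaling. As to tanycytes themselves, Rax, which defines them, was at 0.0412 FPKM or less.

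**Figure D5:**
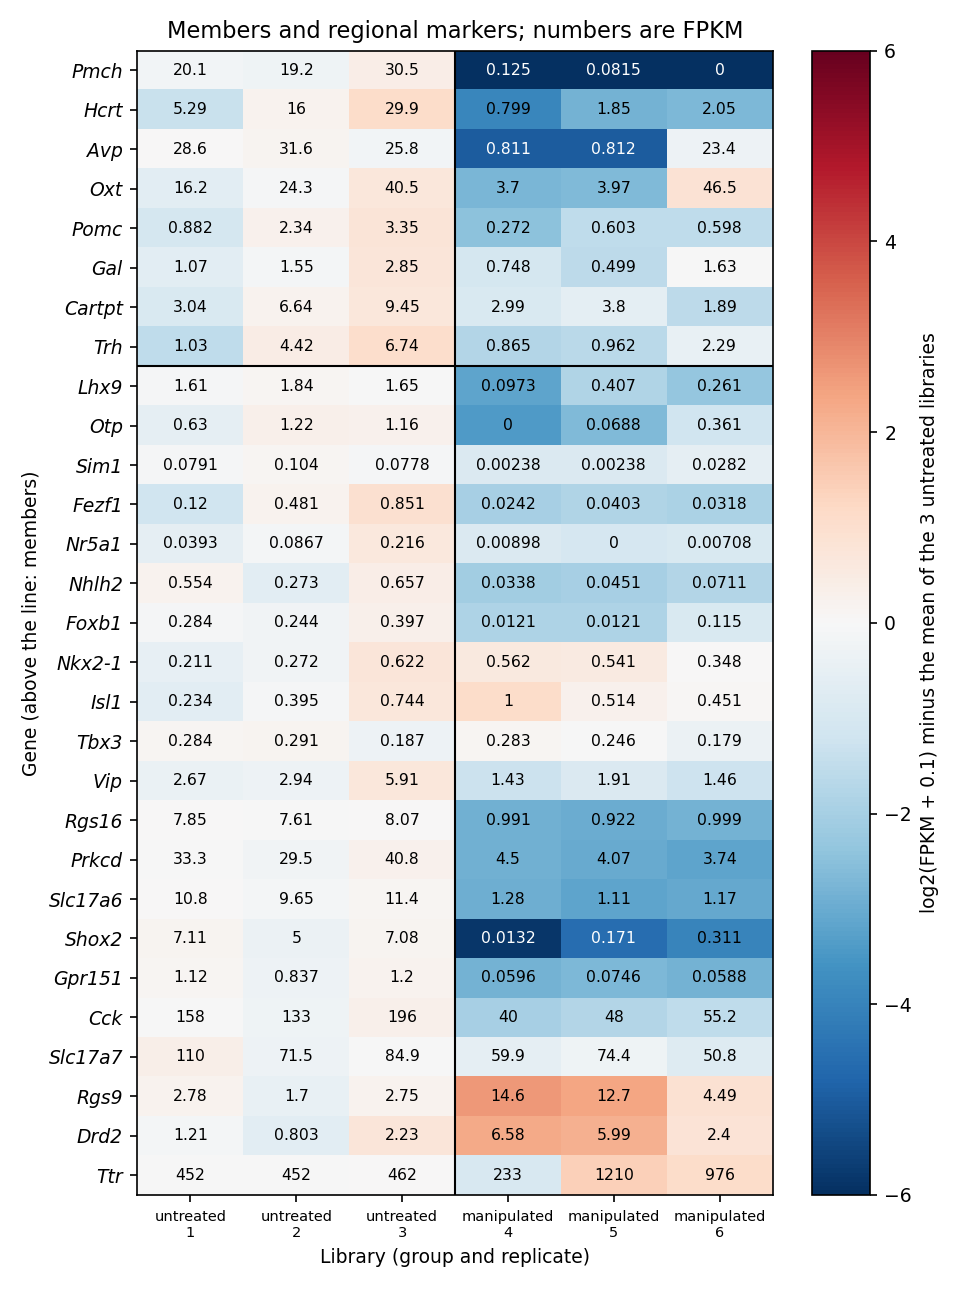
Heat map of the 8 tested members (above the line) and regional genes chosen after their values were seen (rows) in the 6 libraries (columns), coloured by log2(FPKM + 0.1) minus the mean of the 3 untreated libraries and with the FPKM printed in each cell. Avp and Oxt are low in manipulated replicates 4 and 5 alone, Pmch and thalamic genes in all 3 manipulated libraries, and the striatal genes Rgs9 and Drd2 are highest in replicates 4 and 5.

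Markers of neighbouring regions differed between the groups in both directions. Of 8 tested genes of thalamic relay neurons 8 were lower and 7 fell by limma. Their median log2 fold change was -2.28, and their summed level was 93.2 to 106 FPKM in untreated and 12.8 to 16.6 FPKM in manipulated rats. Replicate 6 was as low as replicates 4 and 5 for Prkcd, with 4.50, 4.07 and 3.74 FPKM, and for Slc17a6, the glutamate transporter of subcortical neurons, with 1.28, 1.11 and 1.17 FPKM. Tcf7l2 and Lef1, factors of Wnt signalling, and Ramp3, a receptor partner, fell by 2.37, 1.80 and 2.18 on the log2 scale (limma adjusted p 0.0186, 0.0138 and 0.00150), and Calb2, calretinin, had -1.09 with an adjusted p of 0.146. In replicate 6 the thalamic genes were thus low, as Pmch was, where Avp and Oxt were high. All 10 tested markers of the striatum, from its medium spiny neurons, had a higher mean log2 level, in 8 of them without overlap between groups, against 1.08% of tested genes. Their median difference was 1.25 on the log2 scale, 9 had an unadjusted p under 0.05 and none passed the limma adjusted p, which 0.0845% of tested genes passed as higher. The summed striatal level was 46.1 to 71.2 FPKM in untreated and 79.2 to 203 FPKM in manipulated rats. Here replicate 6 stood apart: Ppp1r1b, the dopamine target DARPP-32, had 83.7 and 101 FPKM in replicates 4 and 5 and 36.0 FPKM in replicate 6, against 21.3 to 34.9 FPKM in untreated rats. Scn4b, a sodium channel subunit, had 18.6, 17.9 and 12.2 FPKM against 5.09 to 6.17 FPKM, and Pde10a, a striatal phosphodiesterase, 20.1, 15.0 and 6.24 FPKM against 4.54 to 6.48 FPKM. Of 8 tested choroid plexus genes all were higher and none passed, with Ttr, transthyretin, at 233, 1210 and 976 FPKM in manipulated replicates 4, 5 and 6 and 452 to 462 FPKM in untreated rats. Folr1 and Sostdc1 had 2.75, 5.35 and 6.56 FPKM and 1.46, 6.91 and 5.83 FPKM in the same 3 rats, against 1.86 to 3.26 and 1.94 to 3.69 FPKM. Of the cortical list, Nrn1 had 24.9 to 39.3 FPKM in untreated and 10.8 to 19.1 FPKM in manipulated rats, and Mef2c 15.6 to 19.7 and 17.2 to 28.8 FPKM, neither past the adjusted p. Of 6 habenular genes with a value, every manipulated library was below every untreated one in 4 and above in 1, Chat. The 4 lower genes were below the filter and were not tested. Chrna3, Gpr151 and Chrnb4 had 0.569 to 1.37, 0.837 to 1.20 and 0.210 to 0.642 FPKM in untreated rats. In manipulated rats they had 0.0918 to 0.219, 0.0588 to 0.0746 and 0.0332 to 0.0913 FPKM. Pou4f1 had at least 0.316 FPKM in untreated rats and 0 in every manipulated one. Chat had 0.161 to 0.454 FPKM in untreated and 0.686 to 1.39 FPKM in manipulated rats. Tac1, also on the striatal list, overlapped, with 3.57 to 7.48 and 4.39 to 13.5 FPKM. The part of section level in the values of the peptide precursors was not tested, and it cannot be told apart from manipulation.

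Read by rat, the precursors together with thalamic and striatal genes gave 3 patterns. The 3 untreated libraries held Pmch, Hcrt, Avp and Oxt together with thalamic genes, which lie near the level of the tuberal hypothalamus. Manipulated replicates 4 and 5 were low in all 4 of these precursors and in thalamic genes and high in striatal genes. Manipulated replicate 6 held Avp and Oxt, but neither Pmch nor thalamic genes at untreated levels. In replicate 6 Otp was above replicates 4 and 5. Crh was below them as deposited and above them with median-ratio scaling. The summed level of striatal genes in replicate 6 lay between those of the other libraries. Choroid plexus genes divided the rats otherwise, with a summed level of 463 to 471 FPKM in untreated rats and of 242, 1248 and 1012 FPKM in manipulated replicates 4, 5 and 6. As background, the supraoptic nucleus and the front of the paraventricular nucleus lie further forward in the rat brain than the Pmch neurons. Sections were not matched to nuclei by anatomy in the sources used here.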

How the data were processed

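Gene-level FPKM tables of 6 libraries were used as deposited by the authors, who made them with STAR 2.7.3a and Cufflinks on Rnor_6.0 (from the submitters' processing notes). A lower and an upper interval bound stand beside each FPKM, per the file headers. Read totals, annotation release and strandedness were not given in the sources used here, and without strand a gene and its antisense partner cannot be told apart. FPKM is relative within a library, so abundant transcripts lower all others.

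Symbols that shared a row with another gene (3254), had rows at separate loci (142), were absent from some library (32) or had a failed estimate (5) were left out, which kept 26643. Tests covered the 10657 symbols whose mean reached 1 FPKM. The limma 3.58.1 fit, in R 4.3.3, used log2(FPKM + 1) (mean-variance trend, no covariate, two-sided, Benjamini-Hochberg over all tested genes, threshold 0.05). The fit was tested on simulated data. Python 3.11.15 and pandas 2.3.3 served for summaries. RefSeq promoters (GRCr8) were searched by script.

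Members and gene lists were chosen with earlier results of these data known. Genes named were all members, receptors and processing genes averaging 1 FPKM or more, the 3 highest of each other list with any past the threshold (at most 6 a list), and the 2 nearest profiles; others were chosen after their values were seen. A gene that this rule would name is not reported here. Alternatives covered pseudocount, filter, scaling, variance model, weights, row handling and leaving out each library.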

Additional observations from a re-analysis of the deposited data

How the results depend on the processing

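No alternative reversed a member: all 124 log2 fold changes of members under 16 alternatives were negative, and Pmch passed in every one of its 16. The count of members past the adjusted p was 1 with limma as reported. It was 2 with a filter at a mean of 5 FPKM (Hcrt besides Pmch, adjusted p 0.0138). Of the members only Pmch, Hcrt, Avp and Oxt were tested there, and 22 of 4707 genes passed as lower. With weights per library the count was 5 (Hcrt, Avp, Oxt and Pomc besides Pmch, adjusted p 0.0116 to 0.0436). In that fit 7.55% of tested genes passed as lower. Leaving out 1 library gave 1 to 2 members. The count was 2 without untreated replicate 1 (Hcrt besides Pmch), where 0.301% of tested genes passed as lower. It was also 2 without manipulated replicate 6 (Avp besides Pmch), where 0.188% did. The count over all genes, 38 as reported, was 20 with no filter on low values, 84 with a robust trend, 940 with weights per library and 24 with rows naming several genes kept, and 39 to 71 with 1 library left out, 71 without untreated replicate 2. The cause of these differences was not tested. No paired analysis was possible because the 2 groups share no replicate numbers. Each group had 3 rats, and the depth behind values near 0 is unknown.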
